A study of Arabidopsis thaliana with 6 samples.

Results

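The transcripts described here are those of wild-type Arabidopsis thaliana styles through which pollen tubes had grown, ranked by abundance. The members are the 3 wild-type libraries, labelled as biological replicates 1 to 3 of genotype Col-0, of 6 libraries in the series; the other libraries come from paps1-1 in the Col-0 background and were not used. RNA came from excised portions of the style with the tubes inside, so each library mixes transcripts of the pollen tubes with those of the surrounding style, and RNA from the 2 sources was not separated. The labels give neither the plant age nor the time after pollination. Every one of the 33323 genes in the count tables was ranked by its mean level in counts per 1000000 reads assigned to genes (CPM), and no test of a difference was made, since all libraries belong to 1 group.

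A pollen grain that lands on the stigma grows a tube through the transmitting tract of the style towards the ovules, carrying a pair of sperm cells. The tube extends only at its tip, where vesicles deliver wall material rich in pectin. Pectin methylesterases and their inhibitors set how stiff that wall is, RALF peptides with receptor kinases of the ANX and BUPS families and LRX wall proteins keep the tube intact, and proton pumps, calcium pumps and calcium channels hold the ion gradients of the tip. The style supplies a matrix of arabinogalactan proteins and other secreted products, and its development depends on transcription factors such as SPATULA, the HECATE proteins and HAF.

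The libraries held 21031017, 13707799 and 19288861 reads assigned to genes in replicates 1, 2 and 3. A count of 3 reads, the limit that a count of 0 allows, equals 0.143, 0.219 and 0.156 CPM in these libraries. Reads aligning to several places made up 7.28%, 11.9% and 15.1% of all reads and were counted to no gene. The same held for reads ambiguous between genes, which made up 1.60%, 1.41% and 1.59% of all reads. The limit for a count of 0 does not cover either kind of read. A total of 22710, 22761 and 22890 genes had a read, 20999 genes had a read in every library, and 8596 had none in any. By mean level, 16627 genes reached 1 CPM, 1255 reached 100 CPM, 131 reached 1000 CPM and 9 reached 10000 CPM. Exact 95% Clopper-Pearson intervals were computed for shares of reads in single libraries. They were made for the gene with the highest mean CPM, the top 10 and top 100 genes by mean CPM and the gene lists. The annotation classes of broad and of pollen notes were also included. These intervals were at most 0.0514 percentage points wide, and they cover counting error only.

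A small number of genes held most of the reads. Ranked by mean CPM, 158 genes held 50% of the reads, 20 held 25% and 1143 held 75%. Counted within each library, 50% of the reads lay in 130 genes of replicate 1, 252 of replicate 2 and 117 of replicate 3 (166 ± 74.5, SD, n = 3). The reads of replicate 2 were thus spread over more genes than those of the other libraries. Ranked within each library, the 10 most abundant genes took 20.5%, 14.5% and 19.6% of the reads in replicates 1, 2 and 3. The 100 most abundant, ranked in the same way, took 46.8%, 38.4% and 47.9%. The gene that carried the running total past 50% was AT1G50810, annotated as a pseudogene, at 827 ± 42.3 CPM, and MIOX2, a myo-inositol oxygenase, followed it at 827 ± 231 CPM (SD, n = 3).

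**Figure D1:**
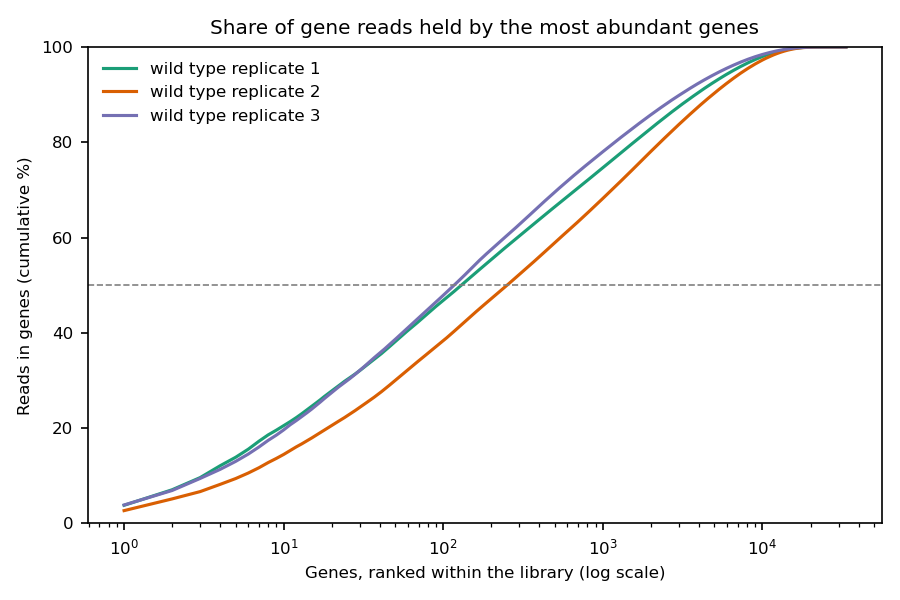
Cumulative percentage of gene reads (vertical axis) against the number of genes, ranked within each library (horizontal axis, log scale), with 1 line for each wild-type library and a dashed line at 50%. Replicates 1 and 3 cross the dashed line at 130 and 117 genes and replicate 2 at 252.

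Enzymes that act on pectin led the ranking. VGD1 (VANGUARD1, AT2G47040), a pectin methylesterase that pollen tubes need for growth in the style, had 37977, 24597 and 38609 CPM in replicates 1, 2 and 3 and alone held 3.37% of the reads by mean. Its tandem neighbour VGDH1 had 13363, 8708 and 15410 CPM and its relative VGDH2 had 4060, 2899 and 7154 CPM. All 3 genes were lowest in replicate 2. The pectate lyase gene AT3G01270 had 14402 ± 2589 CPM, the polygalacturonase gene PGA4 had 7422 ± 1214 CPM, and AT3G07820, a pectin lyase-like gene known as the polygalacturonase PGA3, had 6377 ± 1260 CPM (SD, n = 3 each). The genes AT5G07430, AT3G05610 and AT2G26450, annotated with products of the pectin methylesterase or pectin lyase-like families, averaged 8463, 8327 and 4870 CPM.

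Over all genes, those whose product names a pectin methylesterase or its inhibitor held 7.95% ± 1.61 of the reads, with 8.75%, 6.10% and 8.99% in replicates 1, 2 and 3. They made up 0.343% of the genes with at least 1 CPM, and 11 stood among the 100 most abundant. Genes with a product named as pectate lyase, polygalacturonase or pectin lyase-like held 4.93% ± 0.704 (SD, n = 3 each), with 8 genes in the top 100. They made up 0.367% of the genes with at least 1 CPM. Among them are AT5G07430, named PME50 in the marker list, and the pectin methylesterase gene PPME1. The classes follow product names, so their shares are not split by enzyme activity. The inhibitor gene PMEI1 had 1772, 2231 and 1480 CPM, while PMEI2 had 0.475, 0.730 and 0.622 CPM. Per kilobase of exon these were 2411 and 0.705 CPM, so these inhibitors, both described as pollen genes, differed widely in level; by CPM they ranked 70th and 17867th.

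Genes of other wall enzymes and secreted proteins filled much of the rest of the top 10. The second gene by mean CPM, AT3G28750, is annotated as an uncharacterized protein and had 32595, 26777 and 30411 CPM in replicates 1, 2 and 3; it outranked VGD1 in replicate 2. The glyoxal oxidase-related gene AT5G19580 had 24839, 15150 and 25379 CPM. BGAL11, a beta-galactosidase, had 25618, 12175 and 16695 CPM. Of the SKU5-similar family, relatives of the multicopper oxidases, SKS11 had 6892, 15386 and 19012 CPM, SKS13 had 16998, 8248 and 10980 CPM, and SKS14 and SKS12 averaged 6888 and 2985 CPM. SKS11 and SKS13, which are neighbouring loci, differed in the place of replicate 1, which was lowest for SKS11 and highest for SKS13; replicate 2 was below replicate 3 for both. Related sequences can send reads to several places, and such reads were not counted, so levels of close copies are uncertain; SKS11 also overlaps the annotated gene AT3G13380.

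CPM favours long transcripts, so genes were also compared as CPM per kilobase of exon. On that scale AT3G28750 came first at 22202, followed by VGD1 at 14937, AT5G19580 at 9511, the short proteoglycan-like gene AT5G54095 at 8872 and AT3G01270 at 7501 CPM per kilobase. SKS11, BGAL11, AT5G07430, SKS13 and VGDH1 completed the first 10, between 6153 and 5518 CPM per kilobase. AT5G54095 stood only 17th by CPM (9555, 5436 and 5424 CPM in replicates 1, 2 and 3) and gained its place through an exon length of 767 bases.

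**Figure D2:**
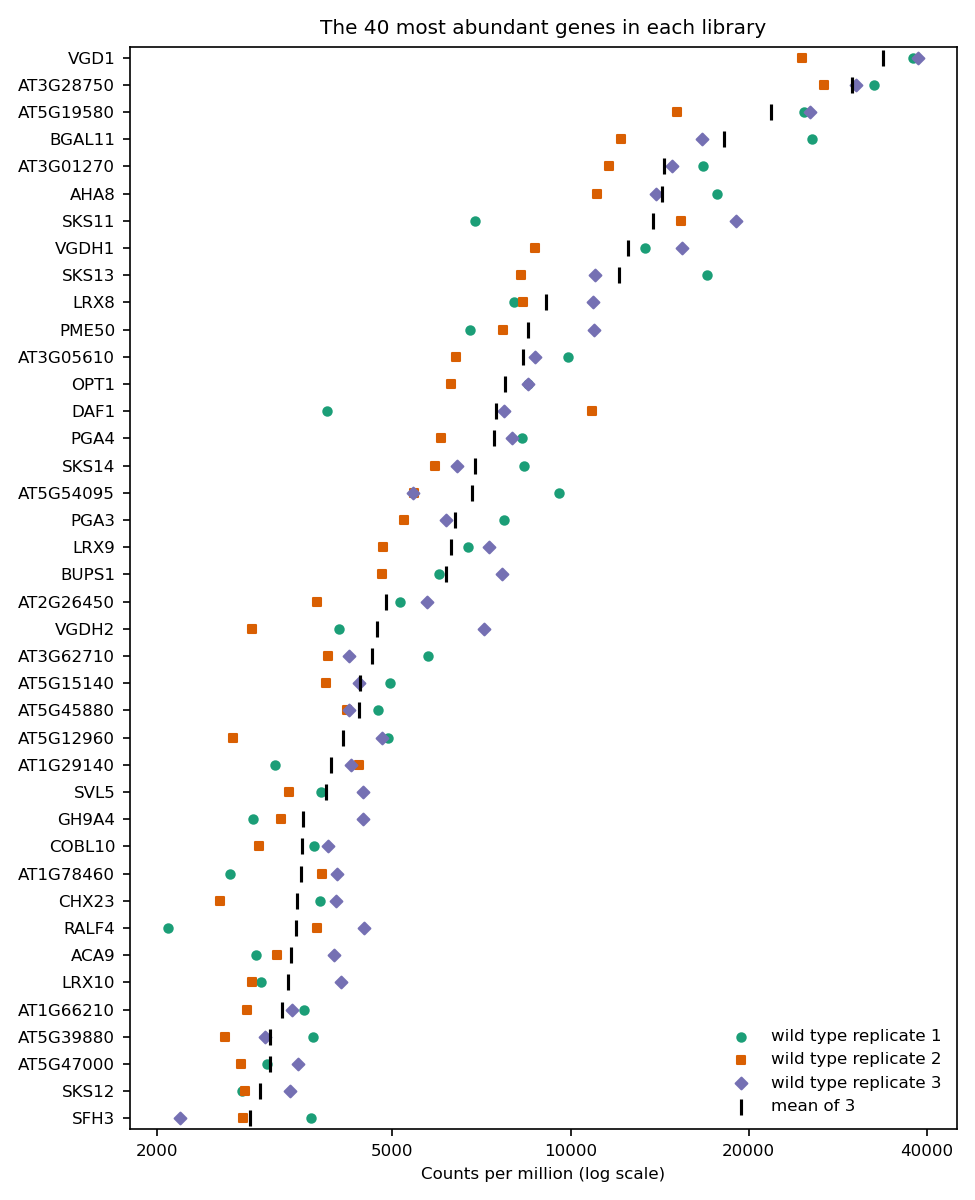
Level of the 40 genes with the highest mean in each wild-type library (horizontal axis, CPM on a log scale; 1 row for each gene, circle, square and diamond for replicates 1, 2 and 3, bar for the mean). The mean falls from 33728 CPM for VGD1 to 2874 CPM for SFH3, and replicate 1 stands apart to the left for SKS11 (6892 CPM), DAF1 (3875 CPM) and RALF4 (2087 CPM); the row names PME50 and PGA3 stand for AT5G07430 and AT3G07820.

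The RALF and receptor system of the tube wall was present at high and uneven levels. The ligand gene RALF4 had 2087, 3725 and 4480 CPM in replicates 1, 2 and 3, and its partner RALF19 had 1907, 2708 and 1725 CPM. RALFL8 and RALFL9, neighbouring genes of the same peptide family, averaged 2124 and 1841 CPM, and RALFL8 had the highest ratio between libraries in the top 100 with CPM (1072, 3456 and 1845 CPM); with TMM scaling, which sets the libraries level by their typical gene, VGDH2 had it. The LRX wall proteins that bind RALF peptides were led by LRX8 (9084 ± 1594 CPM) and LRX9 (6269 ± 1283 CPM), with LRX10 at 3326 ± 668 and LRX11 at 2558 ± 416 CPM (SD, n = 3 each). The reference annotation gives LRX8 to LRX11, BUPS1, BUPS2 and STP10 by locus only, and those names come from the marker list.

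Among the receptor kinase genes, BUPS1 had 5991, 4807 and 7660 CPM in replicates 1, 2 and 3, and its relative BUPS2 had 255, 361 and 481 CPM. ANX2 had 1970, 1728 and 2656 CPM and ANX1 had 856, 817 and 773 CPM. Per kilobase the order was BUPS1 (1895), ANX2 (675), ANX1 (214) and BUPS2 (123 CPM per kilobase). The co-receptor genes LLG2 and LLG3 averaged 242 and 123 CPM. PRK4 (1336 ± 333 CPM), PRK6 (1109 ± 182 CPM) and PRK2 (1006 ± 363 CPM) are receptor kinases, of which PRK6 perceives LURE attractants of the ovule (SD, n = 3 each). Per kilobase they were at 521, 503 and 362 CPM. MRI, a kinase acting below the ANX receptors, had 113, 122 and 115 CPM.

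Ion transport was led by the plasma membrane proton pump gene AHA8 with 17700, 11099 and 13961 CPM in replicates 1, 2 and 3. The other pollen pump genes AHA7, AHA9 and AHA6 averaged 185, 130 and 98.9 CPM. Per kilobase AHA8 stood at 4296 CPM and the others between 28.4 and 53.6 CPM. OPT1, an oligopeptide transporter gene, had 8482, 6285 and 8491 CPM, the cation/proton exchanger gene CHX23 had 3770, 2553 and 4014 CPM, and the calcium pump gene ACA9, needed for pollen tube growth and discharge, had 2945, 3192 and 3990 CPM. Transcripts of the calcium channel CNGC18, which is required for tube guidance, were at 84.4, 84.0 and 104 CPM, which per kilobase is 36.5, against 848 for ACA9. The sugar transporter gene STP10 reached 1478 ± 210 CPM and its relative STP9 had 7.46 ± 2.50 CPM (SD, n = 3 each), or 957 and 3.69 CPM per kilobase. Calcium-dependent kinase genes CPK24 and CPK17 averaged 2404 and 1837 CPM.

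Genes of regulation, the cytoskeleton and wall synthesis were spread widely over the ranking. The F-box gene DAF1 (AT3G62230) was at rank 14, with 3875, 10887 and 7724 CPM in replicates 1, 2 and 3. DAF1 was on none of the gene lists, so no list sum, that of the sperm cell list included, holds its reads. Whether its reads came from the tube or the sperm cells was not tested. The callose synthase gene CALS5, which makes callose of the pollen wall and tube, had 1386 ± 219 CPM, and CSLD4 and CSLD1, cellulose synthase-like genes, averaged 922 and 618 CPM. Tubulin genes TUB4 and TUB9 had 2712 ± 232 and 1626 ± 193 CPM, and the pollen actin genes ACT4 and ACT12 had 350 ± 78.4 and 325 ± 93.5 CPM (SD, n = 3 each). Per kilobase the tubulin genes were at 1509 and 746 CPM and the actin genes at 191 and 123 CPM. Of the pollen MYB factors that act in tube reception, MYB120 had 753, 880 and 789 CPM, and MYB97 and MYB101 averaged 286 and 194 CPM. The small GTPase gene ROP1, a switch of tip growth, had 62.9, 71.9 and 51.9 CPM. The arabinogalactan protein genes BCP1, AGP11 and AGP6, active in pollen, averaged 1130, 1114 and 740 CPM.

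A list of 129 genes known from pollen tubes held 21.1%, 17.3% and 23.5% of the reads in replicates 1, 2 and 3 (20.6% ± 3.16, SD, n = 3). Of these genes, 121 reached 10 CPM, 90 reached 100 CPM and 34 reached 1000 CPM, against 7668, 1255 and 131 of all 33323 genes. Of the 100 most abundant genes 30 were on the list, and 86 of its members were among the top 1000. Its median was 242 CPM, against 0.988 CPM over all genes. The list was chosen with earlier results of these data known, so the count is a description. The 6 members below 1 CPM were PMEI2, the sugar transporter STP6, the potassium channel TPK4, the aquaporin NIP4;1, the arabinogalactan protein FLA14 and the ROP effector RIC4, and their levels were between 0.0574 and 0.609 CPM.

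Because most of the top 100 lay outside that list, the notes of the TAIR annotation on where and when a gene had been seen were also read. Such a note either counts growth stages (a broad note) or names single ones (a narrow note). A narrow note with pollen among its stages or structures was held by 53 of the 100 most abundant genes, 22 had a broad note, 3 had another narrow note, and 22 had none. Narrow notes can also name other flower or embryo stages, so they do not show that a transcript is absent from the style. Narrow notes were read for pollen first, in structures and stages, and only the rest were read for the pistil, in structures alone. Many structure notes give only a number of structures and cannot name a pistil. No gene of the pistil class so defined was among the 100, which this order of reading favours, so no conclusion is drawn from it. Among genes with a note, the share naming pollen was 78.6% in ranks 1 to 50, 55.6% in ranks 51 to 100, 35.4% in ranks 201 to 500, 13.5% in ranks 1001 to 2000 and 3.82% in ranks 5001 to 10000. The 1033 genes noted for pollen held 40.4%, 34.1% and 42.6% of the reads in replicates 1, 2 and 3, and the 10191 broadly noted genes held 35.5%, 38.1% and 32.0%. The 75 genes whose narrow note names a pistil structure and not pollen held 0.0451%, 0.0453% and 0.0426%. Narrow notes that name both count for pollen, so this share is not a like measure to that of the pollen notes. By the notes alone, reads of broadly noted genes cannot be given to either tissue. That class also holds members of the pollen tube list, such as AHA8, PGA4 and LRX10.

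**Figure D3:**
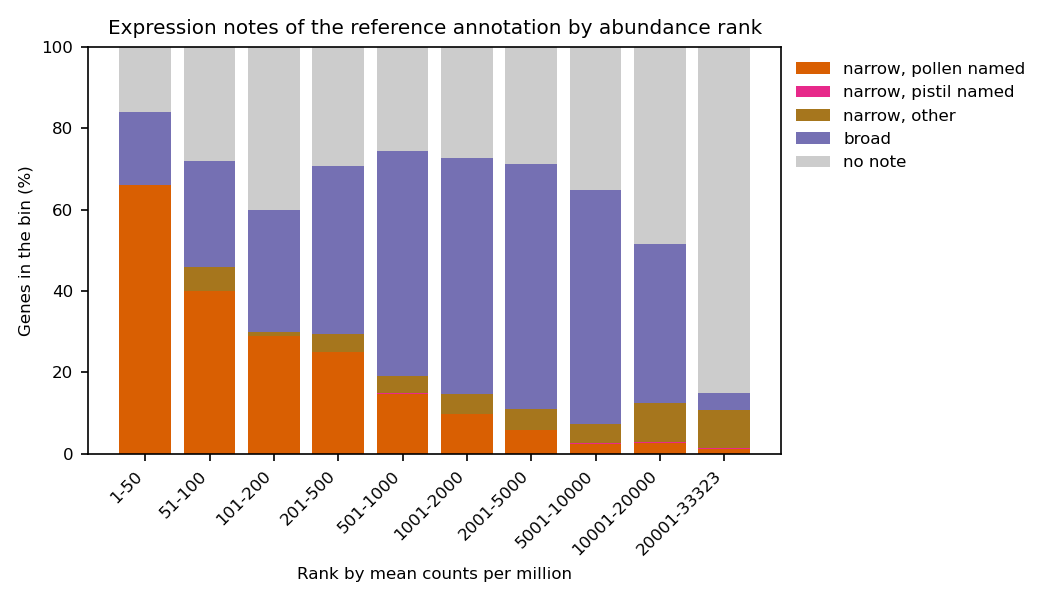
Percentage of genes (vertical axis) with each kind of expression note in bins of abundance rank (horizontal axis, highest levels at the left). The part naming pollen falls from 66% of the genes in ranks 1 to 50 to 2.48% in ranks 5001 to 10000.

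Genes known from the style were scarce beside these. The 30 members of the list for style, stigma and transmitting tract summed to 297, 353 and 149 CPM in replicates 1, 2 and 3, or 0.0266% ± 0.0105 of the reads (SD, n = 3). Per kilobase of exon the list's share was 0.0334%, and that of the pollen tube list was 17.2%. None reached 100 CPM, 6 reached 10 CPM and 5 had no read in any library. The water-soluble chlorophyll protein gene WSCP, active in the transmitting tract, had 101, 92.6 and 17.9 CPM, and ARPN, the plantacyanin gene of the transmitting tract, had 54.6, 58.3 and 48.8 CPM. HAF, a bHLH factor of transmitting tract development, had 38.5, 49.5 and 11.1 CPM. Replicate 3 was thus low for WSCP and HAF and hardly differed for ARPN. The auxin response factor genes ARF6 and ARF8 had 33.6, 68.1 and 28.3 CPM and 8.99, 17.8 and 7.47 CPM, SPT (SPATULA) had 16.5, 15.6 and 8.61 CPM, and MYB21 and NGA3 averaged 9.95 and 6.92 CPM.

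The style list members without a read were HEC1, HEC2, CRC, WIP4 and WIP5. Their levels in counted reads were therefore at most 0.143 to 0.219 CPM, depending on the library. HEC3, of the same HECATE family, had 0.238, 0.219 and 0.207 CPM. These markers are mostly transcription factors of low abundance, so the list's share of reads is not the style's share of the RNA. In these mixed samples fewer cells of a type and less RNA per cell cannot be told apart.

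Genes of the ovary, the anther and green tissue were also low. The 10 ovule and carpel genes summed to 100, 121 and 47.5 CPM, led by the ovule identity gene STK with 40.8 ± 15.4 CPM, and followed by the carpel and fruit genes SHP1 (14.1 ± 6.26 CPM) and FUL (10.3 ± 8.79 CPM; SD, n = 3 each). MYB98, which marks the synergid cells of the ovule, had 5 reads over the 3 libraries. Of 12 anther and tapetum genes, LAP6 and MS2, which act in pollen wall formation, had the highest levels at 1.21 and 1.02 CPM, and MS1, ACOS5, EXL6, GRP17 and A9 had no read. Genes of photosynthesis, 17 in all, summed to 165, 179 and 129 CPM with RBCS1A at 50.1 ± 7.27 CPM (SD, n = 3). Only RBCS1A among the photosynthesis genes and none of the anther genes exceeded 15 CPM.

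Sperm cell transcripts were present in every library, at levels that differed between them. The 14 genes of that list summed to 705, 1683 and 1227 CPM in replicates 1, 2 and 3. GEX1, which acts in nuclear fusion, had 261, 637 and 496 CPM, PCR11 had 142, 456 and 301 CPM, and DAZ3, a target of the germline regulator DUO1, had 197, 385 and 278 CPM. The sperm histone gene HTR10 had 18.7, 47.9 and 24.6 CPM and the gamete fusogen gene GCS1 had 9.32, 13.9 and 13.4 CPM. GEX2, another sperm membrane protein gene, had 3 reads in all. Each of the 9 members above 10 CPM was lowest in replicate 1, both with CPM and with TMM scaling, against 33.3% and 29.3% of all 7668 genes above 10 CPM. The highest library was replicate 2 for 9 of 9 with CPM, against 67.9% of all genes, and replicate 3 for 8 of 9 with TMM, against 45.4% of all genes.

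**Figure D4:**
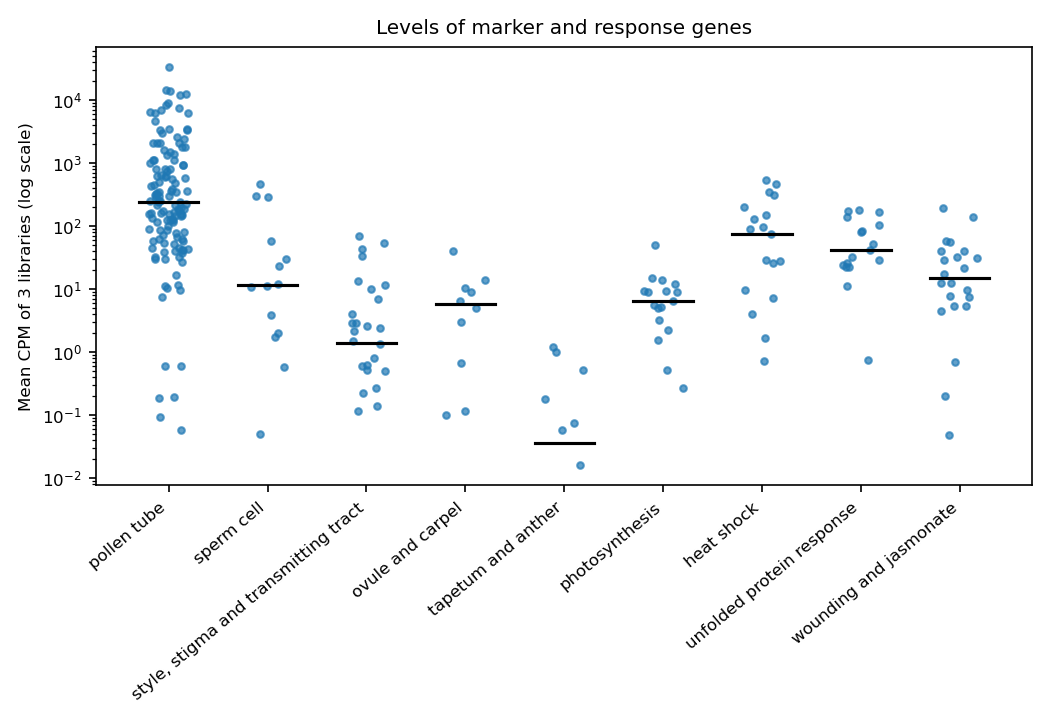
Mean level over the 3 wild-type libraries (vertical axis, CPM on a log scale) of each gene of the 9 lists (horizontal axis); each point is a gene, horizontal bars are list medians, and members without a read are not drawn (5 style, 5 tapetum and anther, and 1 heat shock). The pollen tube list has its median at 242 CPM and the style list at 1.40 CPM.

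Stress and wounding genes were measured as well. The 19 heat shock genes summed to 1915, 2404 and 3221 CPM in replicates 1, 2 and 3, led by the chaperone genes HSP90.1 (409, 529 and 657 CPM), HSP70 (411, 424 and 562 CPM) and the co-chaperone ROF2 (157, 344 and 538 CPM). HSFB1 had no read counted to it. The 17 genes of the unfolded protein response summed to 958, 1294 and 1310 CPM, with ERDJ3A, PDIL1-1 and BIP2, all of protein folding in the endoplasmic reticulum, averaging 177, 172 and 165 CPM. BIP3, a chaperone gene that is strongly induced by endoplasmic reticulum stress, had 4.18, 27.7 and 46.1 CPM. Wounding and jasmonate genes summed to 812, 908 and 459 CPM over 22 members, led by the WRKY33 factor (217, 244 and 116 CPM) and the jasmonate repressor JAZ1 (141, 197 and 80.1 CPM). With TMM scaling the heat shock sums were 1968, 1906 and 3952 and the wounding sums 834, 720 and 563 in replicates 1, 2 and 3. Replicate 3 was thus highest for heat shock and lowest for wounding under both scalings, while the lowest library for heat shock was replicate 1 with CPM and replicate 2 with TMM.

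Ribosomal RNA contributed little. The 18S gene AT3G41768 had 1098, 1404 and 2652 CPM and was 74th in rank, and the second 18S gene AT2G01010 had 2.52, 5.40 and 7.98 CPM. The 5.8S gene AT3G41979 and AT2G01020, which the reference annotates as 5S, averaged 0.779 and 0.409 CPM. As copies of these genes are nearly identical, reads placed several times were not counted, which makes their levels uncertain. Protein-coding genes made up 98 of the 100 most abundant and took 98.9% of the reads.

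The spread between the 3 libraries was far above counting error. For the 1255 genes with at least 100 CPM, the median coefficient of variation was 20.8%, against 1.71% from counting alone. The ratio of highest to lowest library had a median of 1.49, and 238 genes (19.0%) differed at least 2-fold between the extremes. For the 100 most abundant genes the median coefficient of variation was 21.2% and 12 had a ratio of at least 2; with TMM scaling these were 34.6% and 50 genes, and with DESeq2 size factors the coefficient was 35.9%. Over the 1255 genes TMM gave a median coefficient of 27.0% and 359 genes (28.6%) with a ratio of at least 2. The common biological coefficient of variation of edgeR was 0.347 with plain gene totals, 0.275 with TMM and 0.276 with DESeq2 size factors. Nonetheless the order was largely shared: 77 genes were in the top 100 of every library and 7 in every top 10, and Spearman's correlation across 16627 genes, which are not independent replicates, was between 0.947 and 0.968 for the 3 pairs of libraries.

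The widest spreads belonged to genes of lower level. TGG1, a myrosinase gene of guard and myrosin cells, had 112, 297 and 41.8 CPM, a ratio of 7.11, or 4.59 with TMM. CEP1, a cysteine protease gene, had 114, 209 and 33.2 CPM, and the lignin pathway gene CCoAOMT1 had 166, 149 and 36.8 CPM, so replicate 3 was lowest in each. PRN and GGP1 shared that pattern, with replicate 3 at 55.3 and 57.8 CPM. The reverse held for AT3G28830 (77.9, 70.0 and 379 CPM), AT3G28770 (63.2, 46.9 and 223 CPM), PPME1, a pollen pectin methylesterase gene (188, 102 and 383 CPM), and the pectate lyase-like gene AT5G15110 (137, 200 and 511 CPM), in which replicate 3 was highest. AT1G56660 had 637, 156 and 394 CPM. With TMM scaling the ratios of these 10 genes were 3.19 to 8.38, and the highest was that of AT3G28830.

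Other genes hardly varied in plain CPM. CK1, a choline kinase gene, had 196, 198 and 197 CPM, a ratio of 1.01. UBC28, a ubiquitin-conjugating enzyme gene, had 106, 108 and 104 CPM, and the translation elongation factor gene AT5G60390 had 1061, 1064 and 1097 CPM. AT2G26490 (661 ± 7.27 CPM), AT1G42470 (238 ± 3.87), AT5G22780 (116 ± 1.95), AT1G36050 (151 ± 3.16), BG5 (146 ± 3.11), AT1G64320 (140 ± 2.92) and AT5G63170 (334 ± 7.88) completed the 10 with the lowest ratios (SD, n = 3 each). This evenness holds for plain CPM only: with TMM scaling CK1 had 202, 157 and 242 and a ratio of 1.54, and the ratios of the 10 genes were 1.49 to 1.61.

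Groups of genes moved together between libraries. Deviations are log2 of a library over the mean of the 3, for genes with at least 10 CPM; with plain CPM the median gene deviated by -0.06, 0.26 and -0.25 in replicates 1, 2 and 3, and with TMM scaling by -0.01, -0.06 and 0.06. Ribosomal protein genes were taken by product name, which also brings in genes such as LOS1, whose product names an elongation factor as well. Of these 226 genes, 219 were lowest in replicate 3 with CPM and 200 with TMM, against 58.3% and 35.6% of all 7668 genes. Their median deviation there was -0.78 and -0.43. The 121 pollen tube genes had median deviations of -0.13, -0.04 and 0.09 with CPM and of -0.12, -0.41 and 0.35 with TMM, and 56 of them (46.3%) were highest in replicate 3 with CPM and 101 (83.5%) with TMM, against 14.9% and 45.4% of all genes. Heat shock genes were highest in replicate 3 for 10 of 13 with CPM and 13 of 13 with TMM, against the same 14.9% and 45.4%. Style genes were lowest there for 6 of 6 with CPM and 4 of 6 with TMM, and wounding genes for 12 of 13 with CPM and 9 of 13 with TMM, against 58.3% and 35.6% of all genes.

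Replicate 3 therefore had lower ribosomal protein transcripts and higher transcripts of the listed heat shock genes than the mean under both scalings. Its median deviation also kept its sign in pollen tube genes (0.09 with CPM and 0.35 with TMM) and in style genes (-0.63 and -0.29), and the size changed with the scaling. In the 127 genes whose product names a chaperone or heat shock, the replicate 3 median changed sign, from -0.15 with CPM to 0.15 with TMM. Replicate 3 also had the largest share of reads aligning to several places (15.1%) and the highest level of 18S RNA. The log2 ratio of replicate 3 over replicate 2 had a Spearman correlation of 0.28 with exon length across 1255 genes, which are not independent. For replicate 3 over replicate 1 that correlation was 0.18, and for replicate 2 over replicate 1 it was -0.09. The part of these in the differences between libraries was not tested.

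**Figure D5:**
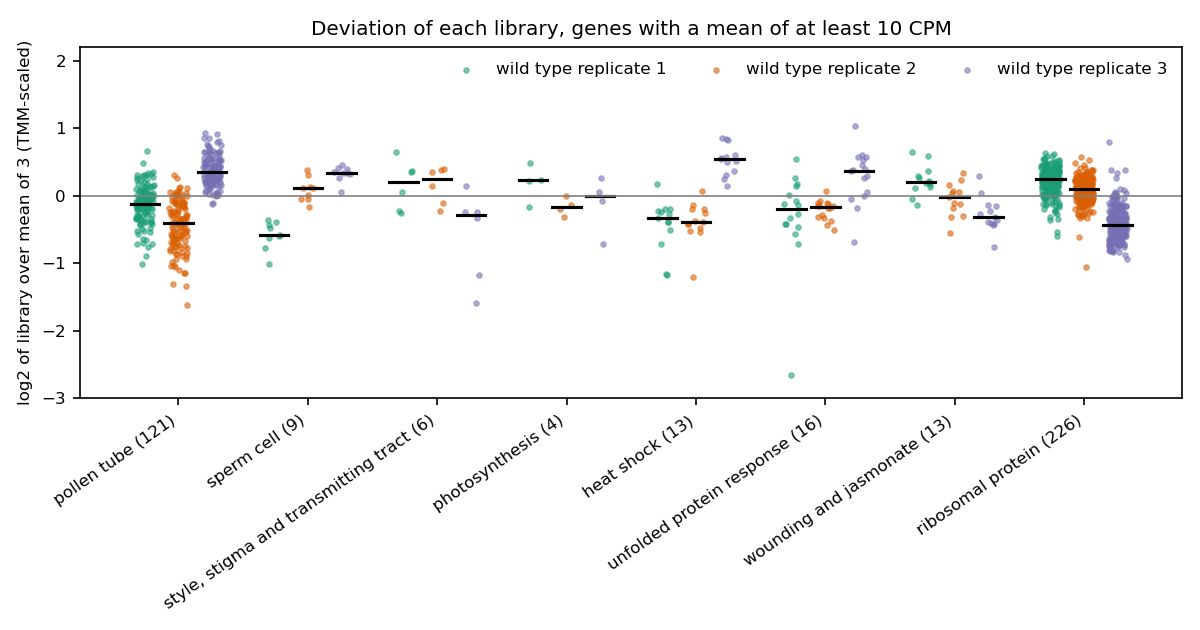
Deviation of each library from the mean of the 3 (vertical axis, log2, TMM-scaled) for genes with at least 10 CPM in 7 lists and the ribosomal protein genes (horizontal axis, number of genes in parentheses); points are genes, black bars medians. The sperm cell median lies at -0.58 in replicate 1 and the ribosomal protein median at -0.43 in replicate 3.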

How the data were processed

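Messenger RNA libraries were made from 3 wild-type samples, per the labels. The deposited values are raw counts of reads per gene, which the authors made with STAR on the TAIR10 genome, per the submitters' processing notes. Its version, the gene models and the settings were not given in the sources used here. Counts with strand ignored were used, because reads on both strands were nearly equal (ratios 1.05 to 1.07), so overlapping genes on opposite strands cannot be told apart. Of the 100 most abundant genes, 15 overlap another annotated gene, against 28.9% of the genes with at least 1 CPM. Lines for unassigned reads stayed out of totals. Genes of the organelles were not analysed here.

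CPM is the count per 1000000 reads in genes, averaged over the libraries with equal weight, without a filter. Names, products, notes and exon lengths came from the TAIR10.1 annotation, which matched 32835 of 33323 identifiers. Exon lengths and overlaps between genes rest on the coordinates of that build, which differs by name from the build of the counts. No sequences were taken from it. A note counts as broad where it counts growth stages. TMM factors for levels and deviations came from edgeR 4.0.16 on all 33323 genes, and other size factors from DESeq2 1.42.0. The biological coefficient of variation came from edgeR on 17024 genes kept by filterByExpr with a minimum count of 10. It used plain gene totals unless another scaling is named. The dispersion estimate was tested on simulated data. A pseudocount of 0.1 CPM entered the deviations. The members and gene lists were chosen with earlier results of these data known, and the reading of the notes was chosen after the data were seen. Named were the 40 most abundant genes, the 10 highest per kilobase, the 12 highest of the pollen tube list and 8 of each other list, members without a read, the 10 widest and 10 steadiest genes above 100 CPM, and the genes around the 50% rank, not all of them with values; further members are named by role and were chosen after their values were seen. As a check for a library deposited more than once, read counts of each pair of libraries were compared: they differed by more than sampling noise (chi-square per degree of freedom at least 64.3).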

Additional observations from a re-analysis of the deposited data

How the results depend on the processing

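No paired analysis was possible because no genotypes were compared and no result comes from a test. Of 92 recomputed values, 85 stayed within the limits set for them and 7 moved; none changed direction, as none has one. The number of genes holding 50% of the reads was 148 to 168 under other scalings, averages, strands, lengths and filters, and 125 to 183 with a library left out (125 without replicate 2, 183 without replicate 3). The pollen tube list held 17.2% per kilobase of exon, against 20.6% by CPM, and 19.2% to 22.3% with a library left out. The median coefficient of variation of the 100 most abundant genes was 34.6% with TMM and 35.9% with DESeq2 size factors, against 21.2%, and 16.4% to 22.6% with a library left out. The common biological coefficient of variation was 0.275 with TMM and 0.276 with DESeq2, against 0.347, and 0.279 to 0.416 with a library left out; the cause was not tested. Scaling factors cannot change shares of reads within a library. The pooled reads give no coefficient of variation, and medians, pooled reads and values per kilobase no dispersion. Genes at 0 are limited only to 0.143 to 0.219 CPM in counted reads, and 3 libraries give a coarse estimate of spread.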
